A study of Mus musculus with 1 sample.

Results

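Proteoglycans and matrix glycoproteins make up much of the material that cells lay down around themselves. The 43 genes described here were chosen by name and by what their proteins are. The rule used no measured value, but it was set with earlier results of these data known. They are lecticans, other chondroitin sulfate proteoglycans, tenascins and a link protein, small leucine-rich proteoglycans, basement membrane proteoglycans and nidogens, syndecans, glypicans, fibronectin with matricellular glycoproteins, and fibulins with elastic fibre genes. Each of the 43 gene symbols had 1 row among the 23282 rows of the table. The table came from RNA-seq of 1 library of primary mixed glia grown from mouse ventral midbrain (VM). The mice were of the ICR (CD-1) outbred strain, the labelled age was postnatal day 5, and the library was labelled as control. The study asked what inhibition of the kinase SGK1 by GSK650394 does to such glia, and its control cultures received the vehicle DMSO. Libraries of treated glia were not analysed here, so no contrast was made, and with 1 library no value below has an error between cultures. The labels do not say how many pups or cultures went into the library, nor whether it was exposed to the toxins that the treatment protocol mentions. Cells were grown in medium with 10% serum and passaged onto a coated surface before use.

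The brain's matrix differs from that of most organs in that it holds few collagen fibres and much hyaluronan, a long sugar polymer. Lecticans bind hyaluronan at one end and tenascins at the other, and link proteins lock the first of these bonds. Around some neurons this network condenses into perineuronal nets, while astrocytes and scar tissue lay down looser forms that hold back growing axons. Small leucine-rich proteoglycans bind collagen and growth factors and are typical of connective tissue and meninges. Syndecans span the cell membrane and glypicans are tied to it by a lipid anchor, and both carry heparan sulfate chains that hold growth factors at the cell surface. Matricellular proteins such as SPARC and the thrombospondins signal to cells more than they bear load.

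Values are given on 2 scales. The value is the deposited number, which the authors describe as a normalised read count. The level is that value per kilobase of exon and per 1000000 of the sum of all values, which allows genes of unlike length to be compared. The sum of values was 27569507. The number of reads behind it is unknown, so no counting interval is given.

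Most of these matrix genes were detected, and a handful of secreted glycoproteins dominated them. With a minimum value of 10 for detection, 40 of the 43 genes (93.0%) were detected, against 67.2% of all rows. The 3 below this minimum were the glypican Gpc5 at a value of 8, the lectican Acan at 3 and the link protein Hapln1 at 2, and none was listed at 0. By value, 35 of the 43 (81.4%) lay above the median of detected genes, which was 469, against 33.6% of all rows. By level, 33 (76.7%) lay above the median of 3.72, against 33.8% of rows with a length. The highest 10% of detected genes held 10 of the 43 (23.3%) by value and 8 (18.6%) by level, where the shares of all rows were 6.72% and 6.76%. The median value of the 43 genes was 1646 and their median level 10.9. Together they held 0.92% of the sum of values. Fibronectin alone made up 37.8% of that, and the 3 highest genes, Fn1, Sparc and Sparcl1, made up 62.7%.

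**Figure D1:**
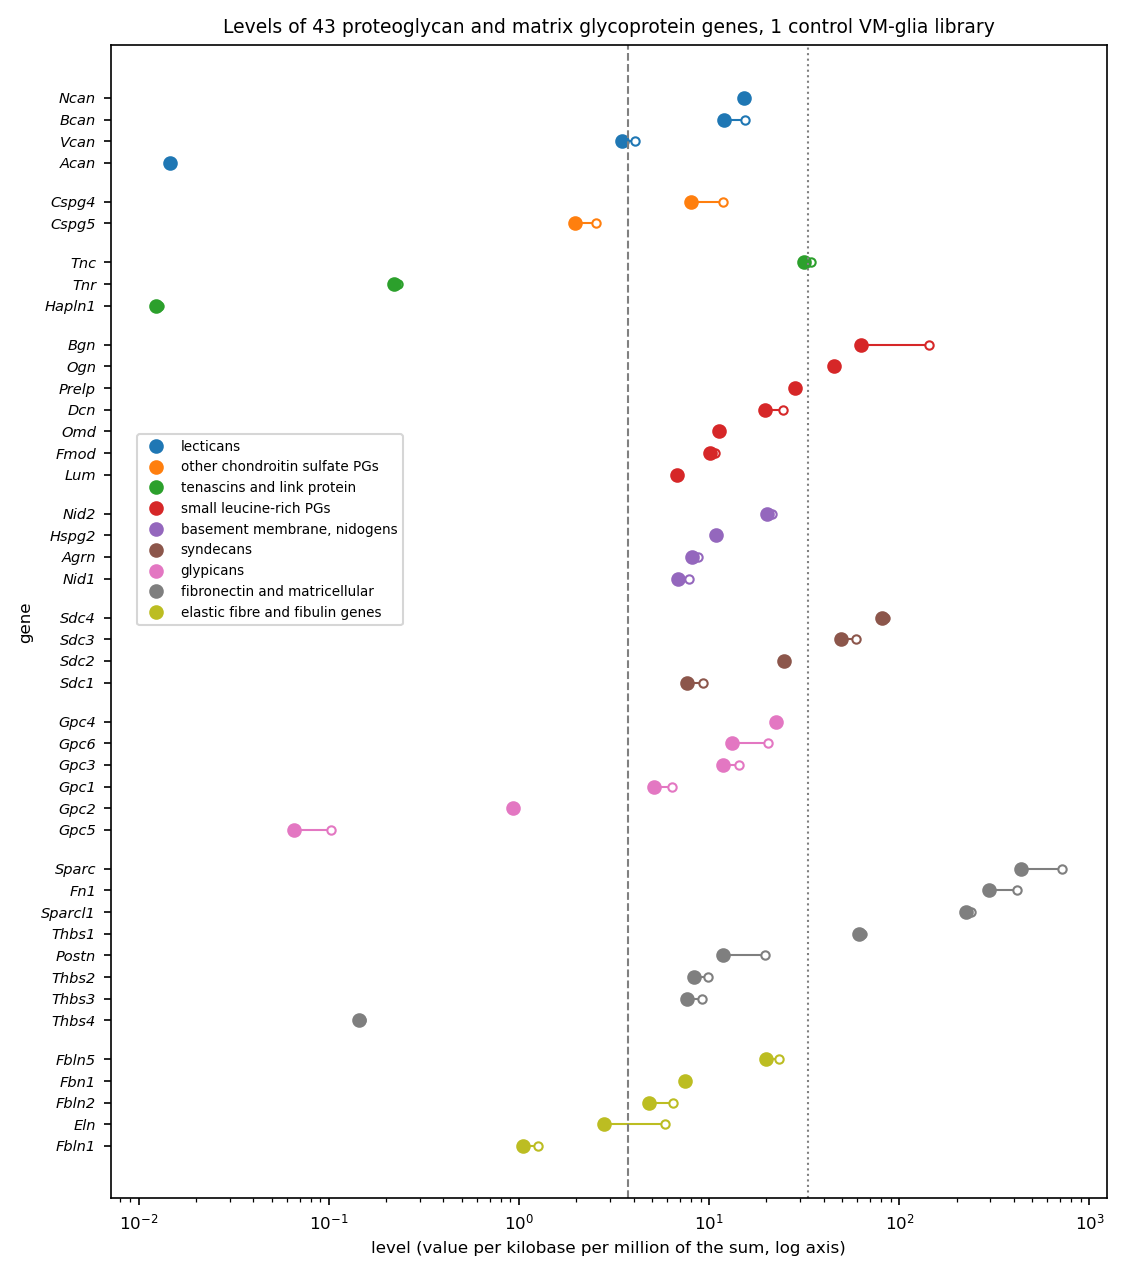
Level of each of the 43 genes in the 1 control library, as value per kilobase per 1000000 of the sum of values on a log axis, grouped by subfamily. Filled points use the union of annotated exons as gene length and open points the longest annotated transcript. The dashed line is the median of detected genes (3.72) and the dotted line the start of their highest 10% (33.0). Sparc, Fn1 and Sparcl1 lie farthest to the right, and Hapln1, Acan, Gpc5, Thbs4 and Tnr farthest to the left.

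The library was a mixture of cell types, so the fixed marker lists are given before the results. Of all rows, 67.2% were detected. All 10 astrocyte markers were detected, with levels from 5.15 (Slc1a2) to 148 (Gfap) and a sum of 471. All 10 microglia markers were detected as well, from 15.4 (Tmem119) to 1137.6 (C1qa), with a sum of 3864.6. Of 8 fibroblast and meningeal markers 7 were detected, led by Col1a1 at a level of 93.5 and with Slc22a6 lowest at a value of 2. Of 8 smooth muscle and pericyte markers 6 were detected. Of the smooth muscle genes, values were 26499 for Acta2, 11771 for Tagln, 1509 for Cnn1, 284 for Myh11 and 10 for Des, while the pericyte gene Kcnj8 was lowest at a value of 5. All 8 oligodendrocyte lineage markers were detected, with Sox10 lowest at a level of 0.571. Of 8 endothelial markers 5 were detected, led by Flt1 (level 6.52), and Tek was listed at 0. Of 8 neuron markers 6 were detected, led by Stmn2 (level 24.6), and Slc17a6 was listed at 0. Which cells each matrix transcript came from was not tested, and in a mixed culture fewer cells of a type and less RNA per cell cannot be told apart.

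Fibronectin and the matricellular glycoproteins held the largest share of the sum over the 43 genes, 68.9% by value and 65.3% by level. All 8 genes of this subfamily were detected, and 4 were in the highest 10% of detected genes by level. Their median level of 36.5 was 9.8 times that of all detected genes, slightly below the 37.0 of the syndecans. Fn1, which encodes the fibril-forming adhesive glycoprotein fibronectin, had the highest value, 95749, and was in rank 15 of all rows. It lies on chromosome 1 (71585520 to 71653200, minus strand, GRCm38). Sparc, a collagen-binding glycoprotein that regulates matrix assembly, had a value of 45283 (chromosome 11, 55394500 to 55423183, minus strand). Fn1 has 11.7 kb of exon and Sparc 3.79 kb, so their order turned around with length. The level of Sparc was 434 and that of Fn1 297, a ratio of 1.46. With the longest transcripts these levels were 714 and 418. Sparcl1 (hevin), the SPARC relative that astrocytes release and that promotes synapse formation, had a value of 18065 and a level of 223. These were the highest 3 levels of the 43, and each was above at least 98.5% of detected genes.

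Among the thrombospondins, secreted glycoproteins of which several are astrocyte signals for synapse formation, Thbs1 stood above its relatives. Its value was 10249 and its level 61.2, which was 7.34 times that of Thbs2. Thbs2 had a value of 1611 and a level of 8.34, and Thbs3 a value of 1015 and a level of 7.63. The order of Thbs2 and Thbs3 depends on the transcript model, since their ratio of 1.09 became 0.806 with the median coding transcript as length. Part of the Thbs3 exons (6.59%) also overlaps Mtx1 on the opposite strand, which had a value of 1060. Thbs4, which is known from tendon, muscle and adult astrocytes, was barely detected at a value of 13 and a level of 0.143. Postn encodes periostin, an adhesion protein of fibroblasts and healing tissue, and had a value of 2823 and a level of 11.8, or 19.6 with the longest transcript.

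**Figure D2:**
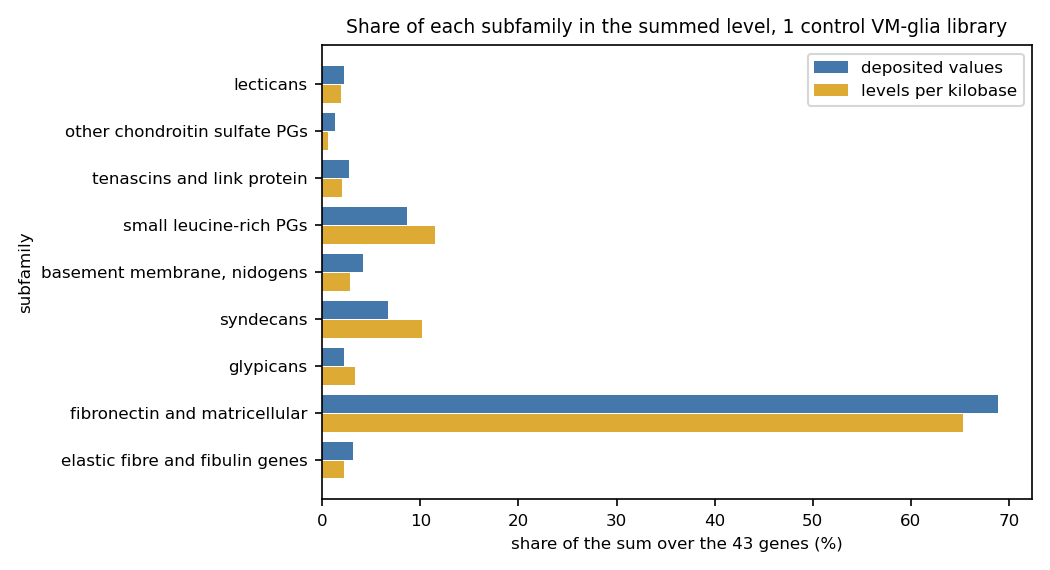
Share of each subfamily in the sum over the 43 genes, in percent, for deposited values and for levels per kilobase in the 1 control library. Fibronectin and the matricellular genes held 68.9% by value and 65.3% by level, and the small leucine-rich proteoglycans and syndecans came next on both scales.

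The small leucine-rich proteoglycans, which coat collagen fibrils, were detected without exception. All 7 lay above the median level of detected genes, and their own median level was 19.7, or 5.28 times that median. Bgn (biglycan) was highest with a value of 10555 and a level of 62.8 (chromosome X, 73483602 to 73495933, plus strand). With the longest transcript as length its level was 144, because the union of its exons (6.1 kb) is longer than any single transcript (2.67 kb). Ogn (osteoglycin, also called mimecan) followed with a value of 3226 and a level of 45.6. Prelp, which links basement membranes to the tissue below, had a value of 2812 and a level of 28.2. Dcn (decorin), which binds collagen and TGFβ, had a value of 3165 and a level of 19.7. With the median coding transcript as length its level was 65.3, above those of Ogn (45.6) and Prelp (28.2), so this order depends on the length. Lower levels were found for Omd (osteomodulin, value 703, level 11.3), Fmod (fibromodulin, value 919, level 10.1) and Lum (lumican, value 455, level 6.74). By level, then, Lum was the lowest of the 7, and Dcn exceeded it 2.92 times, or 9.69 times with the median coding transcript. Transcripts of Omd hold a stretch of up to 184 bases that is at least 95% identical to transcripts of 134 other genes, so part of its value may be shared. As given above, 7 of 8 fibroblast and meningeal markers were detected in the same library, against 67.2% of all rows. All 10 astrocyte and all 10 microglia markers were detected too, and which cells were the source was not tested.

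The lecticans, the chondroitin sulfate proteoglycans that bind hyaluronan, comprised 3 detected genes and 1 that was not. Their median level of 7.68 was 2.06 times that of detected genes. With the mean of log2 levels, after adding 1, for both the lecticans and all detected genes, the ratio was 0.94. Ncan (neurocan) had a value of 3018 and a level of 15.2 (chromosome 8, 70093085 to 70120873, minus strand). Bcan (brevican), a product of mature astrocytes, had a value of 1332 and a level of 11.9. With the longest transcript as length the levels were 15.2 and 15.4, so neither can be placed above the other. Vcan (versican), which occurs in large and small splice forms, had a value of 1386. Its 14.5 kb of exon brought its level down to 3.48, slightly below the median of detected genes, whereas the median coding transcript as length gave 21.9, above the 15.2 of Ncan. Acan (aggrecan), the main lectican of cartilage and of perineuronal nets, had a value of 3 and a level of 0.0146.

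Partners of the lecticans were uneven as well, and the tenascins and link protein had a median level of 0.22. Tnc (tenascin-C), which is made by immature and reactive astrocytes, had a value of 6751 and a level of 31.5 (chromosome 4, 63959785 to 64047015, minus strand). Tnr (tenascin-R), a product of oligodendrocytes and some neurons that ties lecticans together in the nets, had a value of 78 and a level of 0.22. The level of Tnc was 143 times that of Tnr, or 32.7 times with the median coding transcript as length. Hapln1, a link protein that fastens lecticans to hyaluronan, had a value of 2 and the lowest level of the 43 (0.0123).

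The other chondroitin sulfate proteoglycans were both detected, 1 above and 1 below the median level. Their own median of 5.0 was 1.34 times that of detected genes. With the mean of log2 levels for both this subfamily and all detected genes, the ratio was 0.878. Cspg4 encodes NG2, a membrane protein by which oligodendrocyte precursors and pericytes are recognised, and had a value of 2634 and a level of 8.01. Other markers of these cells were low beside it, with values of 188 for Pdgfra and 48 for Sox10 in the oligodendrocyte list, and of 5 for Kcnj8, 9 for Rgs5 and 25 for Abcc9 in the pericyte list. Cspg5 (neuroglycan C), a neural membrane proteoglycan, had a value of 551 and a level of 1.98, below the median of detected genes. A stretch of its longest transcript recurs in 31 other genes at 95% identity or more.

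All 4 basement membrane genes were detected and lay above the median level, with a median of their own of 9.52. Hspg2 encodes perlecan, a very large heparan sulfate proteoglycan, and its value of 4314 was highest among them, but with 14.3 kb of exon its level was only 10.9. Agrn (agrin), which organises synapses at the neuromuscular junction and lies in the vascular basement membrane, had a value of 2072 and a level of 8.09. The nidogens, which bridge laminin and collagen networks, were at a level of 20.2 for Nid2 (value 2879; chromosome 14, 19751265 to 19811787, plus strand) and 6.88 for Nid1 (value 1316). Nid2 exceeded Nid1 2.94 times, and 2.73 times with the longest transcripts. The exons of Nid2 overlap those of Rtraf on the opposite strand over 8.45% of their length.

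Syndecans were the subfamily with the highest median level, 37.0, which was 9.95 times that of detected genes. By the mean of log2 levels they came after the fibronectin and matricellular genes (5.25 against 5.89 times). Sdc4, the broadly expressed syndecan of focal adhesions, had a value of 5708 and a level of 81.3 (chromosome 2, 164424247 to 164443887, minus strand). Sdc3, the syndecan of the nervous system, had a higher value, 8152, but a lower level of 49.4. This order does not hold for every length, since the short median coding transcript of Sdc3 gives a level of 449. Sdc2, a syndecan of mesenchymal and neural cells, had a value of 2402 and a level of 24.7. Sdc1, best known from epithelia and plasma cells, was lowest with a value of 803 and a level of 7.65.

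Glypicans were lower and more uneven. Of 6 genes 5 were detected and 4 lay above the median level, and the subfamily's median level was 8.47. Gpc4, which astrocytes release to promote the formation of active synapses, had the highest level, 22.5 (value 1646; chromosome X, 52053021 to 52165252, minus strand). Gpc6, which shares that activity, had the highest value, 2347, and a level of 13.2, or 20.5 with the longest transcript. The ratio of Gpc4 to Gpc6 was 1.7 with the union of exons and 0.641 with the median coding transcript, so their order depends on the length used. Gpc3, an inhibitor of hedgehog signalling in the embryo, had a value of 875 and a level of 11.8. Gpc1 had a value of 732 and a level of 5.15, and 18.9% of its exon length is shared with Ankmy1 on the opposite strand, which was listed at 0. Gpc2, a glypican of developing neurons, had a value of 109 and a level of 0.925. Of its exon length, 55.6% is shared with Gm43720 on the same strand, so its value is uncertain. Gpc5 had a value of 8 and a level of 0.0652.

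Genes of elastic fibres were all detected, at a median level of 4.84. Fbln5, a fibulin that brings elastin and its cross-linking enzymes together, was highest with a value of 3764 and a level of 19.8 (chromosome 12, 101746565 to 101819055, minus strand). Fbn1, which encodes the microfibril protein fibrillin-1, had a value of 2489 and a level of 7.44. Of the Fbn1 exon length, 20.1% overlaps Gm9913 on the opposite strand. Fbln2, a fibulin of basement membranes and elastic fibres, had a value of 850 and a level of 4.84. Fbln5 exceeded it 4.08 times, but with the median coding transcript as length the ratio was 0.515. Eln, the gene of elastin itself, had a value of 625 and a level of 2.8, which was 5.88 with the longest transcript and so on either side of the median of 3.72. Fbln1, a fibulin of heart valves and connective tissue, was lowest with a value of 126 and a level of 1.05.

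Several of these genes lie next to a relative in the genome, so the levels of neighbours were compared. Each of the 4 lectican genes sits beside a gene of the link protein family with no other protein-coding gene of the table between them. Acan and Hapln3 on chromosome 7 end 2 bases apart, Ncan and Hapln4 on chromosome 8 are 2.22 kb apart, Bcan and Hapln2 on chromosome 3 are 21.5 kb apart, and Vcan and Hapln1 on chromosome 13 are 43.7 kb apart. In the 3 pairs with a detected lectican, the link protein gene was far lower. Values were 3018 for Ncan and 12 for Hapln4, 1332 for Bcan and 10 for Hapln2, and 1386 for Vcan and 2 for Hapln1. In the remaining pair Acan was at 3 and Hapln3 was listed at 0. All 4 link protein genes thus had values of 12 or less.

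Neighbours among the small leucine-rich genes differed less. Dcn and Lum on chromosome 10 are 47.0 kb apart and had levels of 19.7 and 6.74. On chromosome 13 Ecm2, Aspn, Omd and Ogn follow each other on the plus strand. Their levels were 0.997, 0.925, 11.3 and 45.6 in that order, so the 2 members of the present set were above their neighbours. Fmod and Prelp on chromosome 1 are 116 kb apart on opposite strands, with levels of 10.1 and 28.2. Of the glypican genes, Gpc3 and Gpc4 on chromosome X had levels of 11.8 and 22.5. Gpc5 and Gpc6 lie 400.0 kb apart on chromosome 14, and this pair was uneven, with a value of 8 for Gpc5 and 2347 for Gpc6.

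**Figure D3:**
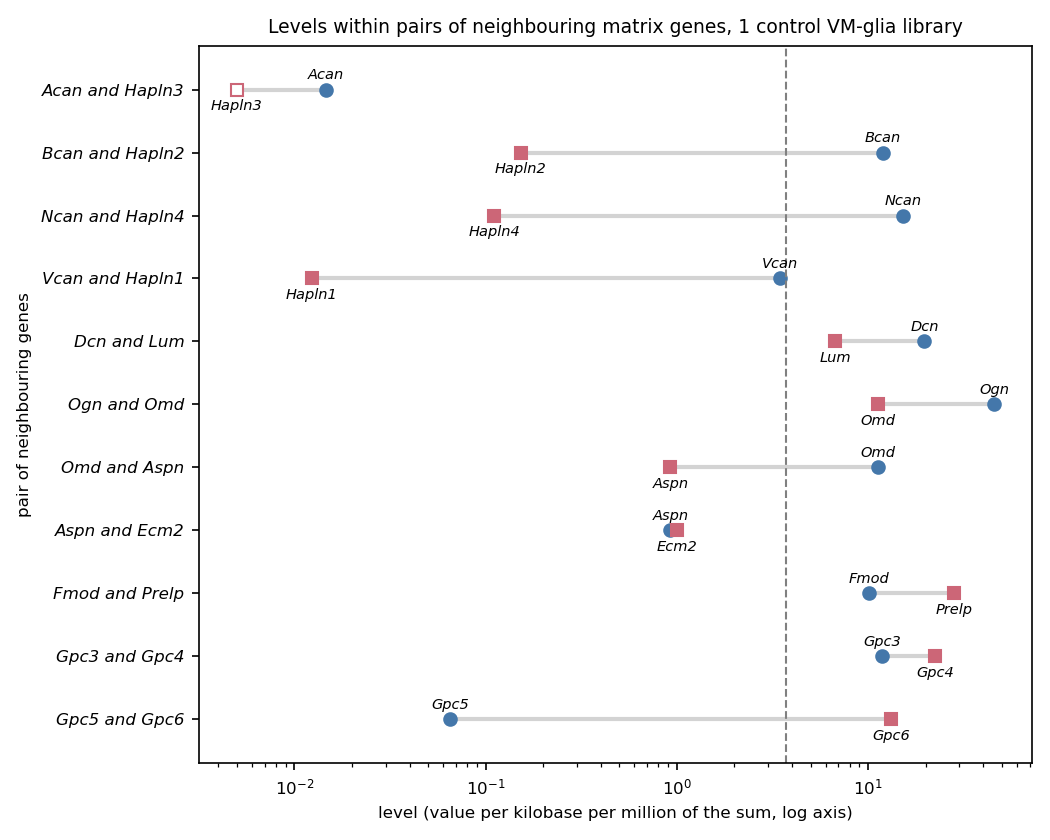
Levels of neighbouring matrix genes in the 1 control library, as value per kilobase per 1000000 of the sum on a log axis, 1 pair per row. Circles are the first and squares the second gene named, the open square marks Hapln3, which was listed at 0 and is drawn at the left edge, and the dashed line is the median of detected genes (3.72). In each lectican row the link protein gene lies to the left.

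Core proteins become proteoglycans only when sugar chains are built on them and sulfated, so the genes for this were read as whole lists. Of 80 genes in 8 lists, 71 (88.8%) were detected, against 67.2% of all rows, and 38 (47.5%) lay above the median level of detected genes, against 33.8% of rows with a length. All 6 enzymes of the linkage region, which start chondroitin, dermatan and heparan sulfate chains, were detected, from a level of 1.44 (Xylt1) to 17.1 (Xylt2). Of 16 chondroitin and dermatan sulfate enzymes 15 were detected, with a median level of 2.6, the polymerase gene Chsy1 highest at 9.42 and the sulfotransferase gene Chst13 lowest at 0.0219. Of 23 heparan sulfate enzymes 19 were detected, with a median level of 1.9. The highest was Sulf2, which trims sulfate from finished chains outside the cell, at a level of 27.8, and the sulfotransferase gene Hs3st2 was listed at 0. Keratan sulfate, which is built without this linkage region, was covered by 5 genes, of which 4 were detected, Chst2 was highest at a level of 29.7 and Chst5 was listed at 0. All 6 genes of sulfate supply were detected, led by Papss1 (level 19.9), which makes the sulfate donor, with Slc26a2 lowest (0.252).

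Hyaluronan, the polymer to which lecticans bind, is made by 3 synthases, and their values were 73 for Has2, 6 for Has1 and 2 for Has3. The hyaluronan list as a whole had 8 of 10 genes detected and a median level of 1.54, with the receptor gene Cd44 highest at 34.6 and Has3 lowest at 0.0114. In contrast, all 10 genes of elastic fibre assembly were detected with a median level of 12.6. Among these, the microfibril gene Mfap2 was highest at 38.9 and the cross-linking enzyme gene Loxl4 lowest at 0.103. Among 4 receptors for chondroitin sulfate 3 were detected, with the phosphatase gene Ptprs highest (level 9.69) and the Nogo receptor gene Rtn4r lowest (value 7, level 0.131).

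**Figure D4:**
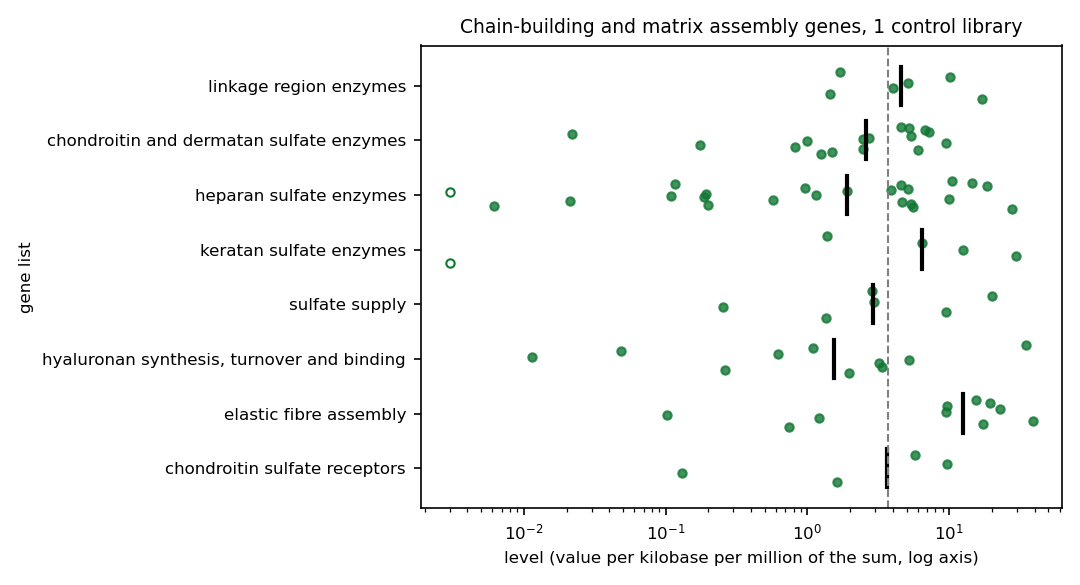
Levels of 80 genes in 8 lists of chain-building, hyaluronan, elastic fibre and receptor genes in the 1 control library, as value per kilobase per 1000000 of the sum on a log axis. Each point is a gene, open points at the left are listed at 0, black bars are list medians and the dashed line is the median of detected genes (3.72). The elastic fibre assembly list has the highest median, 12.6, and the hyaluronan list the lowest, 1.54.

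Promoter sequences were examined at both ends of this range of levels. A window of 250 bases before to 50 bases after the start was found for 32 of the 43 genes in RefSeq (GRCm38.p6), which gave 37 windows, since a gene can have several starts. Shown 5′ to 3′ with CpG dinucleotides in capitals are the 2 members with the lowest level, Hapln1 and Acan, the highest member with a window, Sparc, and the highest small leucine-rich gene, Bgn. They were chosen after their values were seen.
Sparc, chr11:55420031-55420330, minus strand: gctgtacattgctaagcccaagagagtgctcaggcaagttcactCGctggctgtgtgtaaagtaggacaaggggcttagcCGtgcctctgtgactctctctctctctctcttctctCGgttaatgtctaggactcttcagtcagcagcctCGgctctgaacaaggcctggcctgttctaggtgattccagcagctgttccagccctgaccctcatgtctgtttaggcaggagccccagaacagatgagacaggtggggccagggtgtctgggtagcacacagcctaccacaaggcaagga
Bgn, chrX:73483351-73483650, plus strand: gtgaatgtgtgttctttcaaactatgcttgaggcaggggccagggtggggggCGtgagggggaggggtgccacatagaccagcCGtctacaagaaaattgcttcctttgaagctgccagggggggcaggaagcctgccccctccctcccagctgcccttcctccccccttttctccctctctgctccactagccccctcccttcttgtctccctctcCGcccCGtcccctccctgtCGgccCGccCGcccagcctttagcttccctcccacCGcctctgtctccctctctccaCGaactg
Acan, chr7:79052976-79053275, plus strand: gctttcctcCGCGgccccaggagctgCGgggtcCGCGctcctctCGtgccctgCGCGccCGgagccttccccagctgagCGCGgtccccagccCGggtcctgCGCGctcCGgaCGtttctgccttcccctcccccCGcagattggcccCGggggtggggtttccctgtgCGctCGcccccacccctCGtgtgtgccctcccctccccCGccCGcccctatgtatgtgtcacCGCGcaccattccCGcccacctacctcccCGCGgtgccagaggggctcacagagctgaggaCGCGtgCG
Hapln1, chr13:89540386-89540685, plus strand: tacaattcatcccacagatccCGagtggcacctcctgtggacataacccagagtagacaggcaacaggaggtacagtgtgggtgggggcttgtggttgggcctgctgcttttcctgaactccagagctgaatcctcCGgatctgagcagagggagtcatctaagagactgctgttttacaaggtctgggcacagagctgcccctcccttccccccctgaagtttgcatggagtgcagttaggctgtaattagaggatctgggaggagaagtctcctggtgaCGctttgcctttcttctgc

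The window of Sparc, the gene with the highest level, held 4 CpG, and that of Hapln1, with the lowest level, held 3. Acan, which was not detected, had 31, and Bgn had 9. Across the 37 windows the count ran from 1 (Omd) to 44 (Sdc3), with a median of 12, against 7 over all 32851 windows and 19 over those of detected genes. Motifs were searched on both strands as plain descriptions. The GC box GGGCGG was found in 25 windows (67.6%), against 35.7% of all windows and 58.7% of those of detected genes. The TATA sequence TATAAA was found in 7 windows (18.9%) of 6 genes, which were Gpc5, Ncan, Ogn, Postn, Thbs2 and Tnc, against 13.6% of all windows and 7.92% of those of detected genes. The CRE motif TGACGTCA and the AP-1 motif TGACTCA were found in 0 of the 37, where 1.79% and 5.2% of all windows held them. Among windows of detected genes the shares were 2.82% and 4.19%. At such low shares few of 37 windows would hold either motif, so nothing is read from their absence.

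**Figure D5:**
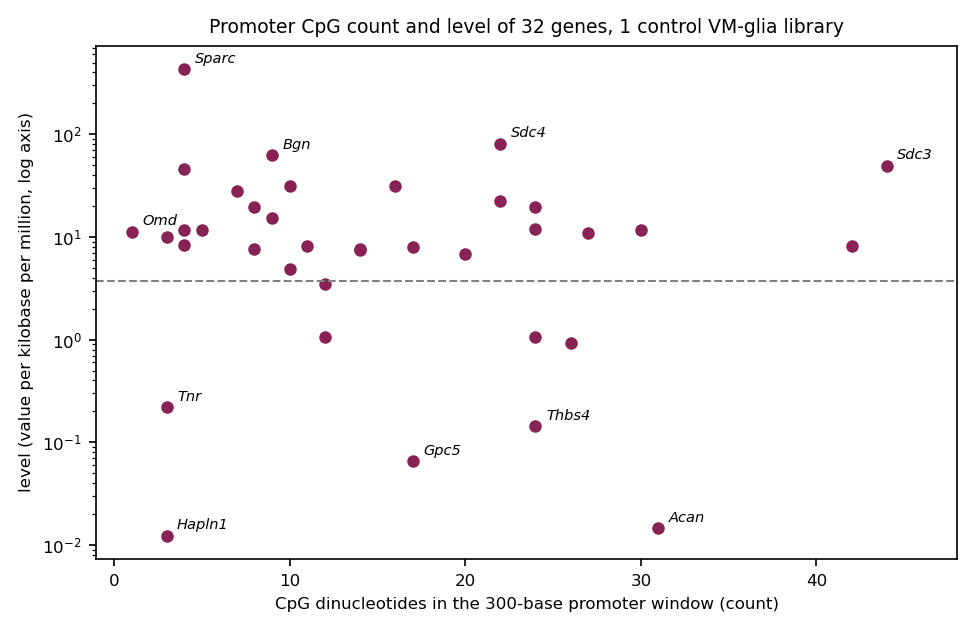
Number of CpG dinucleotides in each promoter window against the level of the gene on a log axis (value per kilobase per 1000000 of the sum), for 37 windows of 32 genes in the 1 control library. Each point is a window, and the dashed line is the median level of detected genes (3.72). Low and high levels occur at few as well as at many CpG, with Hapln1 and Sparc at 3 and 4 and Acan and Sdc3 at 31 and 44.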

How the data were processed

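One RNA-seq library of control VM-glia was analysed. The library was made with a SMARTer mRNA-Seq kit after Trizol extraction. Per the study's methods, bases under quality 20 were trimmed, reads were mapped to GRCm38/mm10 with STAR, and HTSeq-count counted reads on exons of RefSeq Release 105 genes. The submitters' processing notes instead name TopHat and edgeR, and which tools made the values is not given in the sources used here. The deposited values are whole numbers that the authors call normalised read counts, and because their scaling is not known they were treated as a score, not as raw counts. The methods also name FPKM, a unit already divided by length, but the values used here are whole numbers with a sum of 27569507 and were taken as not divided by length. If they were, the levels would be too low for long genes. How they were normalised, strand and multi-mapping settings were not stated, so genes with overlapping exons can share reads.

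Values were divided by the union of exons in GENCODE M21 (GRCm38) and by the sum of values. Of 23282 rows, 22885 (98.3%) matched it by symbol or older symbol. Of the 43 genes, 14 have exons that overlap another gene. Similar transcripts were searched with BLAST 2.17.0 (100 bases, 95% identity), and no member matched another. Ranks and levels were checked on simulated data. With 1 library no test was made. The members and lists were chosen with earlier results of these data known. All 43 members are named, and of each other list the highest and lowest by level and those at 0, besides neighbours of members. One marker value is not reported here. Other markers beside Cspg4, other hyaluronan synthases and other smooth muscle markers were named after their values were seen. Protein sequences were not used here. Alternatives were other minima (1, 3 and 100), gene lengths, sums, list summaries and a pseudocount of 0.1 in place of 1. Python 3.11.15, numpy 2.4.6, pandas 2.3.3 and matplotlib 3.10.9 were used.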

Additional observations from a re-analysis of the deposited data

How the results depend on the processing

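No paired analysis was possible because there was 1 library, and no replicate could be left out. A value was called moved when it changed more than 1.5 times. Of 41 alternatives run on the main counts, shares and medians, 31 stayed within that and 8 moved. The other 2 took a ratio of subfamily to all detected genes from above 1 to below 1. These came from the mean of log2 levels, used in place of the median both for the subfamily and for all detected genes. The ratio became 0.94 for lecticans (2.06 with medians) and 0.878 for the other chondroitin sulfate proteoglycans (1.34). The reference changed as well, so this does not place either subfamily below the median of detected genes. The same summary gave 0.58 for tenascins and link protein, 5.25 for syndecans, 1.04 for glypicans and 5.89 for fibronectin and matricellular genes. Medians of deposited values gave 3.4 for the other chondroitin sulfate proteoglycans, 0.166 for tenascins and link protein and 5.28 for basement membrane genes. The log2 lead of Tnc over the next member was 4.74 with a pseudocount of 1 and 6.63 with 0.1. The numbers of members detected, above the median and in the highest 10%, and their share of the sum, stayed within 1.5 times under every alternative run on them. Of 129 alternatives on single levels, 26 moved, all upward, because a shorter length raises the level. Of these, 20 came from the median coding transcript and 6 from the longest transcript. All of the 10 highest levels were the same genes with the longest transcript, and 8 with the median coding transcript. Depth is unknown, so values near 10 cannot be given a counting error.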

Other observations

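Relatives of the 43 genes that were not in the set were detected in most cases but at a lower median level than the 43, for which it was 10.9. Of 27 such genes 22 were detected (81.5%), against 67.2% of all rows. Their median level was 0.725, and 5 (18.5%) lay above the median level of detected genes, against 33.8% of rows with a length. The main exceptions were Fstl1, a secreted relative of SPARC, with a value of 9247 and a level of 68.3, and Srgn (serglycin), the proteoglycan of blood cell granules, with a value of 2707 and a level of 44.7. In the SPARC family 5 of 6 relatives were detected, and Spock3 was lowest at a value of 2. Among the other core proteins all 3 were detected, with Tgfbr3 lowest at a level of 0.743. Relatives of thrombospondins, fibulins and fibrillins were detected in 5 of 5 cases, from a level of 0.465 for Comp to 23.2 for Efemp1.

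The other small leucine-rich genes were low, in contrast to the 7 members. Of 8 genes 5 were detected, Podn was highest at a level of 3.59, and Kera and Nyx were listed at 0. Both other tenascins were detected, with levels of 0.274 for Tnn and 0.0564 for Tnxb. The 3 other link protein genes had a median level of 0.111.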
